A study of Mus musculus with 8 samples.

Results

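Toll-like receptors are membrane proteins that recognise microbial molecules. Those of the cell surface bind lipids and lipoproteins, and those of the endosome bind nucleic acids taken up by the cell. TLR2 pairs with TLR1 or TLR6 for bacterial lipoproteins, and TLR4 recognises LPS only together with MD-2, the product of Ly96. TLR7 binds single-stranded RNA and TLR9 binds DNA with unmethylated CpG motifs, and both need the membrane protein UNC93B1 to leave the endoplasmic reticulum. CD180 (RP105) is a TLR4-like surface protein of B cells that lacks a signalling domain and is held by MD-1, the product of Ly86. B cells carry both kinds of receptor and respond to either without help from T cells.

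The genes described here are Tlr1, Tlr2, Tlr4, Tlr6, Tlr7, Tlr9, Unc93b1, Cd180, Ly86 and Ly96, chosen by symbol and not by a cutoff on their values. Earlier results of these data were known when they were chosen. All 10 of 10 were found among the 37583 gene identifiers of each library, and all 10 passed the filter on low counts. They comprise 4 surface receptors (Tlr1, Tlr2, Tlr4 and Tlr6), 2 endosomal receptors (Tlr7 and Tlr9) and 4 accessory or trafficking genes (Unc93b1, Cd180, Ly86 and Ly96). By identifier and chromosome, Tlr1 is ENSMUSG00000044827 (chromosome 5), Tlr2 is ENSMUSG00000027995 (chromosome 3), Tlr4 is ENSMUSG00000039005 (chromosome 4), Tlr6 is ENSMUSG00000051498 (chromosome 5), Tlr7 is ENSMUSG00000044583 (chromosome X), Tlr9 is ENSMUSG00000045322 (chromosome 9), Unc93b1 is ENSMUSG00000036908 (chromosome 19), Cd180 is ENSMUSG00000021624 (chromosome 13), Ly86 is ENSMUSG00000021423 (chromosome 13) and Ly96 is ENSMUSG00000025779 (chromosome 1).

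All libraries are of mouse B cells labelled strain B6, with no genetic change given, and fall into 3 groups. The naive group has 3 libraries of naive B cells, with no treatment given. For the CpG group (CpG-B cells, 3 libraries) C57BL/6 splenic B cells received CpG ODN1668, an oligonucleotide ligand of TLR9, over 3 days. For the TLR group (TLR-Bregs, 2 libraries) the CpG culture also received LPS, the phorbol ester PMA and the calcium ionophore ionomycin in its final 5 hours, and the parts of these 3 agents cannot be told apart. Sex, age and genotype beyond the strain are not stated, nor whether replicates were separate mice or cultures. The p-values therefore cover only the spread between libraries, which may be technical. No time-matched culture without CpG is among the groups, and the naive libraries are therefore the only control.

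Counts assigned to genes totalled 15804311 to 20069272 per library, and levels are given as CPM, counts relative to the TMM-scaled library total, with mean ± SD over the 3 naive, 3 CpG or 2 TLR libraries. Log2 fold changes carry ± SE and adjusted p-values from edgeR's quasi-likelihood test over 13964 genes, and a gene is called at an adjusted p below 0.05. The 8 B cell markers examined, among them Cd79a and Ms4a1, had counts in every group, and their summed level was 10781 to 11644 CPM in naive, 7192 to 10654 CPM in CpG and 2208 to 2347 CPM in TLR libraries. In the TLR libraries 7 of these 8 were called lower than with CpG. Against naive libraries 3 of the 8 were called lower with CpG and all 8 lower in the TLR group, with 0 higher. Of all tested genes 19.8% were called lower in TLR than in CpG libraries. Against naive libraries 21.9% were called lower and 23.5% higher with CpG, and 29.7% lower in the TLR group. Ms4a1 was at 1480 to 2485 CPM with CpG and at 52.4 and 76.6 CPM in TLR libraries. Macrophage and monocyte markers had a summed level of 1321, 315 and 163 CPM in the naive libraries in replicate order, 13.0 to 35.1 CPM with CpG and 7.76 to 10.8 CPM in the TLR group, with 11 of 12 called lower in CpG than in naive cells and none of the 12 without a count in any group. Dendritic cell markers summed to 30.0 to 70.5 CPM in naive, 26.8 to 52.5 CPM in CpG and 12.8 to 26.4 CPM in TLR libraries. Of these 8 markers, 5 were called lower and 1 higher with CpG than in naive libraries. Flt3 (9.03, 38.7 and 13.7 CPM) and Ccr9 (14.6, 10.8 and 10.4 CPM) were the highest of them in the CpG libraries. The sums were 4.81 to 18.0 CPM (naive), 0.273 to 1.496 CPM (CpG) and 0.226 to 0.620 CPM (TLR) for T cells. For natural killer cells they were 7.76 to 41.7 CPM in naive and at most 0.491 CPM in all other libraries, and for neutrophils 1.00 to 7.93 CPM and at most 0.481 CPM, and all 8 neutrophil markers had no count in the TLR libraries. In these bulk libraries fewer cells of a type and less RNA per cell cannot be told apart. Replicate 1 of each group also carried another prefix in its library name (RCa1) than the rest (RCa18), and 37.5% to 50.2% of its reads aligned to several places, against 14.7% to 21.5% in the others.

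With CpG alone the endosomal receptors Tlr7 and Tlr9 were not called, Unc93b1, Ly86 and Tlr2 rose by up to 1.48-fold, and Tlr4, Cd180 and Tlr1 fell by up to 2.15-fold. The calls of Tlr1, Tlr2 and Ly86 were each lost when some single libraries were left out, and the Tlr1 libraries overlapped. After the final 5 hours 8 of the 10 genes were called lower than with CpG, against 19.8% of all tested genes. The falls ran from 1.79-fold for Cd180 to 6.31-fold for Tlr4. Tlr2 and Ly96 were the 2 genes not called in that comparison.

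**Figure D1:**
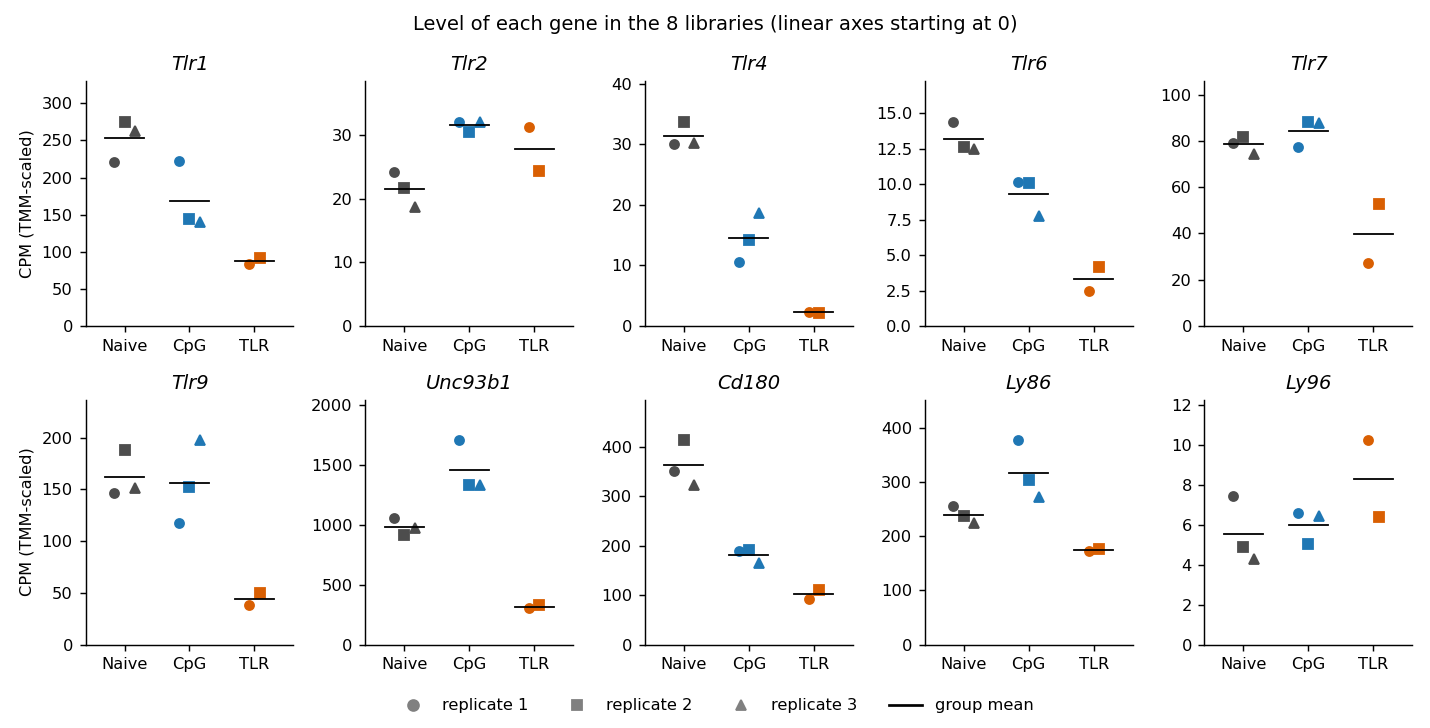
Level of each of the 10 genes in every library, in TMM-scaled CPM on linear axes that start at 0; symbols mark the replicate number and the black line is the group mean. Tlr4 steps down from 30.1 to 33.7 CPM in naive libraries to 2.22 and 2.38 CPM in TLR libraries, while the ranges of Ly96 overlap between all groups.

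The first comparison, CpG against naive, asks what 3 days with a TLR9 ligand left of the receptor messages. Of the 10 genes, 3 were called higher and 3 lower, where 45.5% of all tested genes were called in this comparison, 23.5% higher and 21.9% lower. The libraries of the 2 groups did not overlap for 6 of the 10, and for 56% of all tested genes. The median log2 fold change of the 10 genes was 0.02, against 0.01 over all tested genes.

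Tlr9, the receptor that binds the CpG oligonucleotide, was read at 146, 188 and 151 CPM in the naive libraries and at 118, 152 and 197 CPM in the CpG libraries, in replicate order. The ranges overlapped, and the change of -0.06 ± 0.19 was not called (adjusted p = 0.828). Tlr7, whose ligand is RNA, stood at 79.1, 81.8 and 74.5 CPM in naive and at 77.2, 88.3 and 87.7 CPM in CpG libraries. These ranges overlapped as well (0.10 ± 0.20, adjusted p = 0.694). At an unadjusted p below 0.05 and by DESeq2 the number of endosomal receptors called in either direction was also 0.

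Unc93b1, the carrier of both endosomal receptors, was at 1058, 916 and 975 CPM in the naive libraries and at 1707, 1331 and 1338 CPM with CpG. Every CpG library lay above every naive library, a 1.48-fold rise (0.57 ± 0.14, adjusted p = 0.00731). The highest CpG value belonged to replicate 1, which also had the highest B cell marker sum of its group (10654 CPM against 7350 and 7192 CPM), and the part of that sum in the result was not tested.

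The surface receptors went in both directions. Tlr4, the LPS receptor, was at 30.1, 33.7 and 30.2 CPM in naive and at 10.6, 14.2 and 18.7 CPM in CpG libraries, with no overlap. This was a 2.15-fold fall (-1.11 ± 0.20, adjusted p = 0.00161). Tlr2, the shared partner for lipoproteins, was at 24.1, 21.6 and 18.7 CPM in naive and at 32.0, 30.5 and 32.0 CPM in CpG libraries, again without overlap. It rose 1.47-fold (0.55 ± 0.14, adjusted p = 0.0114), a call lost when naive replicate 3 was left out (adjusted p = 0.0577).

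Its partners did not rise with it. Tlr1 was at 221, 275 and 262 CPM in naive and at 222, 144 and 139.5 CPM in CpG libraries, so that CpG replicate 1 lay within the naive range. The fall was called (-0.59 ± 0.18, adjusted p = 0.0234), but within the RCa1 prefix the log2 ratio was 0.0027 and within RCa18 it was -0.92. Leaving out naive replicate 2 or 3 (adjusted p = 0.0761 and 0.0625) or CpG replicate 2 or 3 (adjusted p = 0.0903 and 0.0798) ended the call. Tlr6 was at 14.4, 12.6 and 12.5 CPM in naive and at 10.1, 10.1 and 7.75 CPM in CpG libraries, without overlap and not called (-0.50 ± 0.22, adjusted p = 0.0975).

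Cd180 and Ly86, whose products form a single complex on the B cell surface, moved in opposite directions. Cd180 was at 351, 413 and 322 CPM in naive and at 189.8, 191 and 165 CPM in CpG libraries, a 1.99-fold fall without overlap (-0.99 ± 0.13, adjusted p = 0.000285). Ly86 was at 255, 237 and 223 CPM in naive and at 377, 304 and 271 CPM with CpG. These ranges did not overlap either (0.41 ± 0.13, adjusted p = 0.0296), but leaving out naive replicate 2 or 3 ended the call (adjusted p = 0.0882 and 0.115) or CpG replicate 1 (adjusted p = 0.0530, with a change of 0.27).

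Ly96, the LPS-binding partner of TLR4, had few reads, with 143, 98 and 82 counts in naive and 102, 94 and 118 counts in CpG libraries. This corresponds to 7.45, 4.91 and 4.28 CPM and to 6.58, 5.02 and 6.44 CPM, and the groups overlapped (0.12 ± 0.29, adjusted p = 0.766). Its highest naive value was in replicate 1, the library with the highest macrophage marker sum, and the part of those cells was not tested. In the same 3 libraries, with 1321, 315 and 163 CPM of macrophage markers, Tlr4 was at 30.1, 33.7 and 30.2 CPM. Without naive replicate 1 the change of Tlr4 was -1.15 ± 0.23 (adjusted p = 0.00404). The part of those cells in the Tlr4 change was not tested. Tlr2, Tlr6, Unc93b1 and Ly86 also had their highest naive value in replicate 1. The part of those cells in their changes was not tested either.

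**Figure D2:**
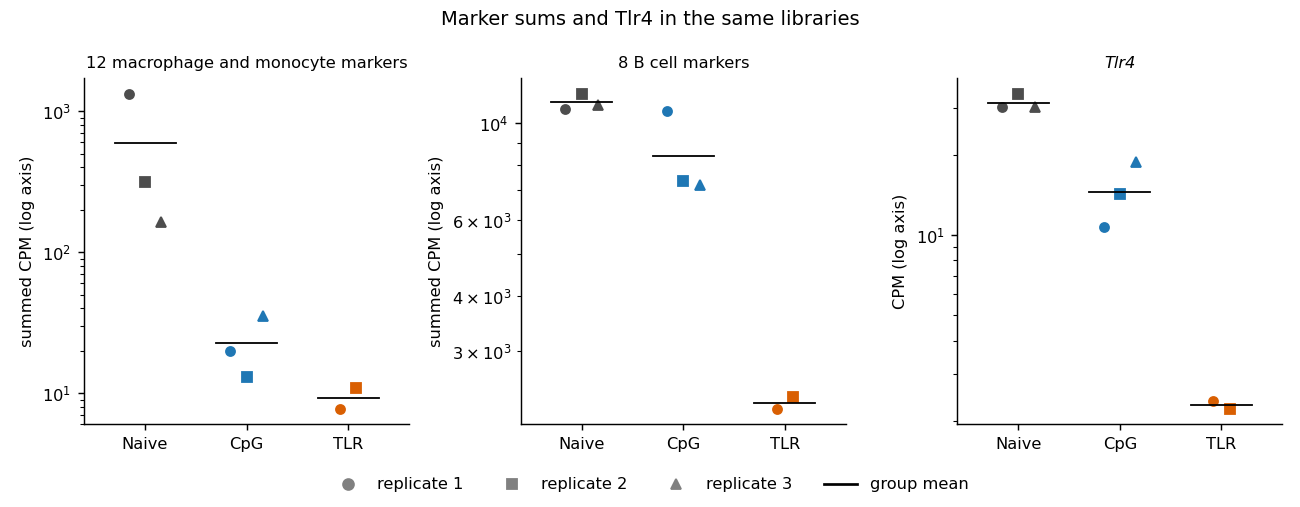
Summed macrophage and monocyte markers, summed B cell markers and Tlr4 in the same 8 libraries, in CPM on log axes; symbols mark replicates and lines are group means. Naive replicate 1 stands highest for the macrophage markers (1321 CPM) and at 30.1 CPM for Tlr4, level with naive replicate 3.

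The second comparison, TLR against CpG, isolates the final 5 hours with LPS, PMA and ionomycin. It gave 8 genes lower and 0 higher of the 10, where 38.8% of all tested genes were called, 19.8% lower and 19% higher. The libraries did not overlap for 8 of the 10, all lower, against 59.3% of all tested genes, 30.1% lower. The median log2 fold change was -1.01 for the 10 genes and -0.02 over all tested genes. By DESeq2 and at an unadjusted p below 0.05 the counts were also 8 lower and 0 higher.

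Tlr4 changed most of the 10. It was at 2.38 and 2.22 CPM in the TLR libraries, from 42 and 43 counts, against 10.6 to 18.7 CPM with CpG. The fall was 6.31-fold (-2.66 ± 0.26, adjusted p = 5.63e-05), and its log2 ratio was -2.16 within the RCa1 prefix and -2.89 within RCa18. LPS, the ligand of TLR4, was among the 3 agents of this step.

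Unc93b1 was next, at 303 and 329 CPM against 1331 to 1707 CPM with CpG. It fell 4.62-fold (-2.21 ± 0.17, adjusted p = 1.34e-05), from the group in which it had been highest to a level below every naive library. Of the 2 receptors it carries, Tlr9 was at 38.3 and 49.8 CPM against 118 to 197 CPM with CpG, a 3.53-fold fall (-1.82 ± 0.23, adjusted p = 0.000237). Tlr7 was at 27.1 CPM in TLR replicate 1 and at 52.7 CPM in TLR replicate 2, both below the CpG range of 77.2 to 88.3 CPM. Its fall was called (-1.08 ± 0.23, adjusted p = 0.00486), but the size rests on which TLR library is used: it was -0.68 without replicate 1 and -1.64 without replicate 2, both called.

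Among the surface receptors Tlr6 was at 2.49 and 4.18 CPM, below the CpG range of 7.75 to 10.1 CPM (-1.48 ± 0.27, adjusted p = 0.00211). Tlr1 was at 83.8 and 92.2 CPM, below the CpG range of 139.5 to 222 CPM (-0.94 ± 0.21, adjusted p = 0.00566). Its call was lost without TLR replicate 1 (adjusted p = 0.0535). Tlr2 was at 31.2 and 24.4 CPM, of which the first lay inside the CpG range, and was not called (-0.18 ± 0.16, adjusted p = 0.407).

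Cd180 and Ly86 fell by like amounts in this step. Cd180 was at 91.8 and 111 CPM, below the CpG range of 165 to 191 CPM (-0.84 ± 0.15, adjusted p = 0.00183). Ly86 was at 172 and 176 CPM, below the CpG range of 271 to 377 CPM (-0.87 ± 0.15, adjusted p = 0.00164). Ly96 was at 10.2 and 6.40 CPM, from 181 and 124 counts, and overlapped with CpG (0.47 ± 0.31, adjusted p = 0.272). The B cell marker sum was also lower, 2208 to 2347 CPM against 7192 to 10654 CPM with CpG, and its part in these falls was not tested.

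**Figure D3:**
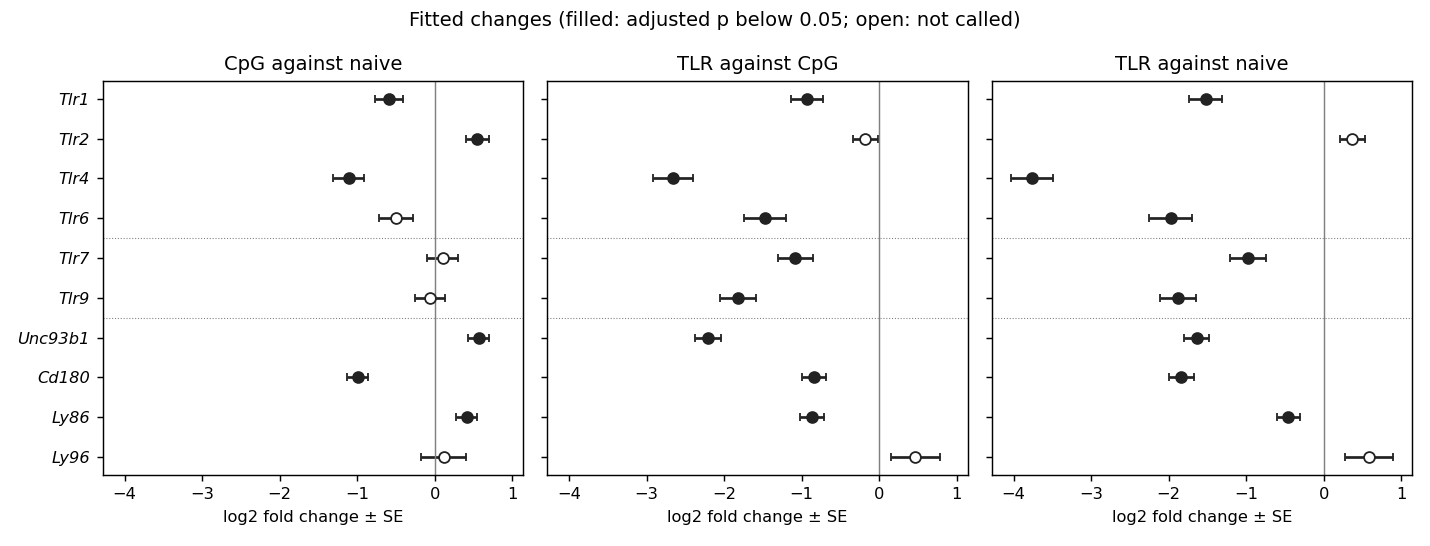
Fitted log2 fold change ± SE of each gene in the 3 comparisons; filled points have an adjusted p below 0.05 and open points do not, and dotted lines separate surface receptors, endosomal receptors and accessory genes. Left panel points lie on both sides of 0, whereas in the middle panel 8 of 10 are filled and below 0, with Tlr4 at -2.66.

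The third comparison, TLR against naive, measures the whole treatment. It shares its libraries with the other 2 comparisons and is no independent support for them. Of the 10 genes 8 were lower and 0 higher, where 61.2% of all tested genes were called, 29.7% lower and 31.6% higher. The libraries did not overlap for 9 of the 10, 8 of them lower, against 78.1% of all tested genes, 38.3% lower. The median log2 fold change was -1.58 for the 10 genes and 0.01 over all tested genes. At an unadjusted p below 0.05 there was 1 higher gene, Tlr2, and by DESeq2 there were 0.

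Tlr4 fell 13.6-fold over both steps (-3.77 ± 0.27, adjusted p = 2.88e-06), Tlr6 3.93-fold (-1.97 ± 0.28) and Tlr1 2.87-fold (-1.52 ± 0.21). Tlr9 fell 3.67-fold (-1.88 ± 0.23) and Tlr7 1.97-fold (-0.97 ± 0.23), the latter with -0.57 without TLR replicate 1 and -1.53 without TLR replicate 2. Unc93b1 fell 3.11-fold (-1.64 ± 0.16) and Cd180 3.57-fold (-1.84 ± 0.16). Ly86, higher in CpG than in naive libraries and lower after the final step, ended 1.37-fold lower (-0.46 ± 0.15, adjusted p = 0.0242). That call was not kept on dropping naive replicate 1 or 2 (adjusted p = 0.0599 and 0.0526) or either TLR replicate (-0.43 without TLR replicate 1).

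Tlr2 ended at 24.4 and 31.2 CPM, above the naive range of 18.7 to 24.1 CPM, and was not called (0.37 ± 0.16, adjusted p = 0.0678). It was called without naive replicate 1 (adjusted p = 0.0497) or TLR replicate 2 (adjusted p = 0.0383). Ly96, at 6.40 and 10.2 CPM, overlapped with the naive range (0.58 ± 0.31, adjusted p = 0.132) and was called without naive replicate 1 (0.84, adjusted p = 0.0375). Within both prefixes all 10 genes had the same direction in this comparison and in TLR against CpG, and 6 of 10 did so in CpG against naive.

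Levels of different genes can be set side by side only per length, and CPM was therefore divided by the length of each gene's combined exons in kilobases. On this scale Unc93b1 had the highest level of the 10 in each group, at 324 ± 23.6 CPM per kb in naive, 481 ± 71.0 in CpG and 104 ± 6.12 in TLR libraries. In naive cells Cd180 (80.3 ± 10.2), Tlr1 (75.6 ± 8.39) and Ly86 (65.7 ± 4.36) followed, with each overlapping the next. Tlr9 (46.6 ± 6.62) and Tlr7 (19.2 ± 0.911) came next without overlap, and Tlr2 (7.13 ± 0.893), Tlr4 (5.64 ± 0.371), Ly96 (5.43 ± 1.64) and Tlr6 (3.53 ± 0.284) were lowest, and Ly96 (4.19 to 7.30) overlapped both Tlr4 and Tlr2 (6.22 to 8.00).

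The place of Ly86 depends on the length used, since little of its exon length is coding. Per kb of coding length Ly86 was second in naive (491 ± 32.6, against 529 ± 38.5 for Unc93b1, with overlap) and CpG libraries, and in TLR libraries it stood above Unc93b1 (358 ± 4.89 against 169.99 ± 9.99). The places of other genes depended on the length too. Per kb of coding length Tlr4 (12.5 ± 0.824) lay above Tlr2 (9.13 ± 1.14) in naive libraries, without overlap. Cd180 (183 ± 23.3) and Tlr1 (106 ± 11.8) did not overlap there either. In TLR libraries the mean of Ly96 (17.3 ± 5.66) was above those of Tlr9 (14.2 ± 2.63) and Tlr7 (12.7 ± 5.73), with overlap.

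Per kb of exon, the order changed with treatment. With CpG, Ly86 (87.3 ± 14.8 CPM per kb) stood above Tlr1 (50.3 ± 13.8), Tlr9 (44.8 ± 11.5) and Cd180 (40.3 ± 3.26), and these 3 overlapped in turn. Tlr2 (10.4 ± 0.299) lay above Ly96 (5.89 ± 0.844), and Tlr4 (1.92 to 3.37) and Tlr6 (2.08 to 2.72) overlapped at the foot. In the TLR libraries Tlr9 (12.7 ± 2.34), Tlr7 (9.77 ± 4.42), Tlr2 (9.22 ± 1.60) and Ly96 (8.15 ± 2.66) each overlapped the next. Tlr4 was then the lowest of the 10, at 0.414 ± 0.0201 CPM per kb, below Tlr6 at 0.895 ± 0.321.

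Surface and endosomal receptors were compared as sums per length, with no test because the receptors were chosen for the comparison. The 4 surface receptors summed to 83.4, 98.8 and 93.4 CPM per kb in naive, 81.5, 58.4 and 57.8 in CpG and 36.5 and 37.2 in TLR libraries. The 2 endosomal receptors summed to 61.5, 74.2 and 61.7 CPM per kb in naive, 52.7, 65.4 and 78.2 in CpG and 17.7 and 27.2 in TLR libraries. Both sums were lowest in the TLR libraries, without overlap with either other group, and only the endosomal sum had CpG libraries on both sides of the naive range.

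The ratio of surface to endosomal sums was 1.36, 1.33 and 1.51 in naive, 1.55, 0.893 and 0.739 in CpG and 2.07 and 1.37 in TLR libraries. CpG replicates 2 and 3 were the lowest of the 8 and CpG replicate 1 lay above all naive libraries, so the CpG libraries spread over both sides of the naive range. Tlr1 made up most of the surface sum, at 47.9% ± 2.45 of all 6 receptors in naive, 38.3% ± 9.84 in CpG and 44.5% ± 2.45 in TLR libraries. Without Tlr1 the ratio was 0.281, 0.224 and 0.243 in naive, 0.289, 0.235 and 0.206 in CpG and 0.648 and 0.353 in TLR libraries. Among the surface receptors themselves Tlr4 fell most and Tlr2 was not called lower in any of the 3 comparisons.

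**Figure D4:**
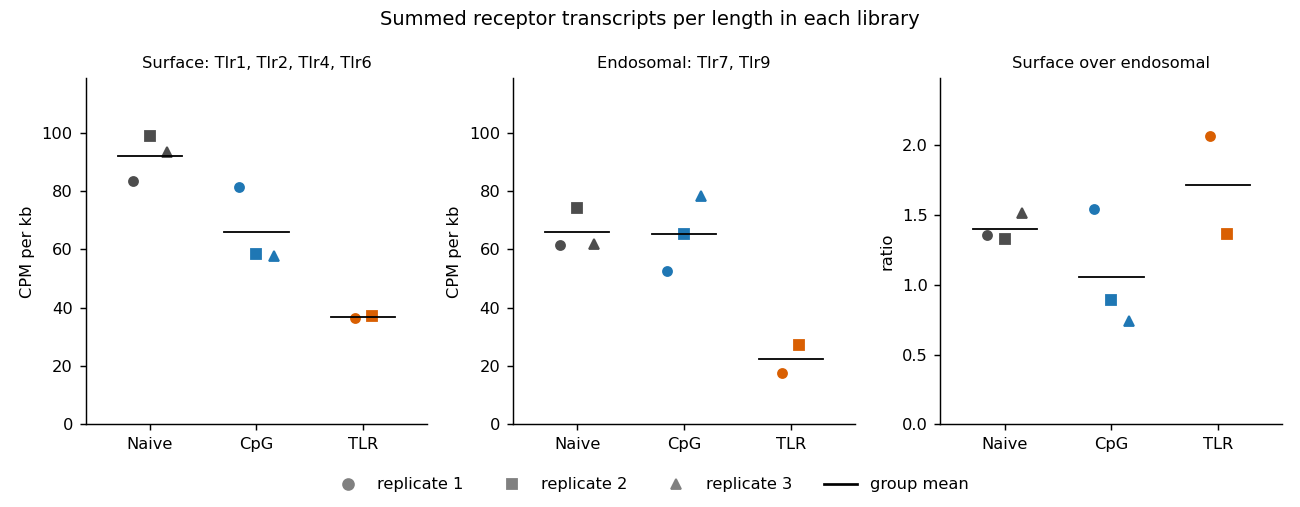
Summed level per length of the surface receptors (left), of the endosomal receptors (middle) and their ratio (right) in each library; the left and middle axes are the same, in CPM per kb. Endosomal sums of CpG libraries (52.7 to 78.2) span the naive ones (61.5 to 74.2), and both sums are lowest in TLR libraries.

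The level of each receptor was set against that of its partner, again as ratios of levels per length in each library and without a test. Tlr4 over Ly96 was 0.741, 1.26 and 1.30 in naive, 0.297, 0.520 and 0.534 in CpG and 0.0426 and 0.0637 in TLR libraries, without overlap at either step. Cd180 over Ly86 was 1.11, 1.40 and 1.16 in naive libraries, 0.406, 0.505 and 0.489 with CpG and 0.429 and 0.509 in TLR libraries. The naive libraries lay above both other groups, and CpG and TLR libraries overlapped. Per kb of coding length the mean ratio was 0.372, 0.142 and 0.143 in naive, CpG and TLR libraries, so whether Cd180 or Ly86 was higher in naive cells depends on the length used.

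Tlr9 over Unc93b1 was 0.121, 0.179 and 0.135 in naive, 0.0600, 0.0997 and 0.129 in CpG and 0.110 and 0.132 in TLR libraries, with overlap between all groups. Tlr7 over Unc93b1 was 0.0555, 0.0664 and 0.0567 in naive, 0.0336, 0.0493 and 0.0487 in CpG and 0.0666 and 0.119 in TLR libraries. For Tlr7 the CpG libraries lay below both other groups. All values are of messages and say nothing of the proteins.

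**Figure D5:**
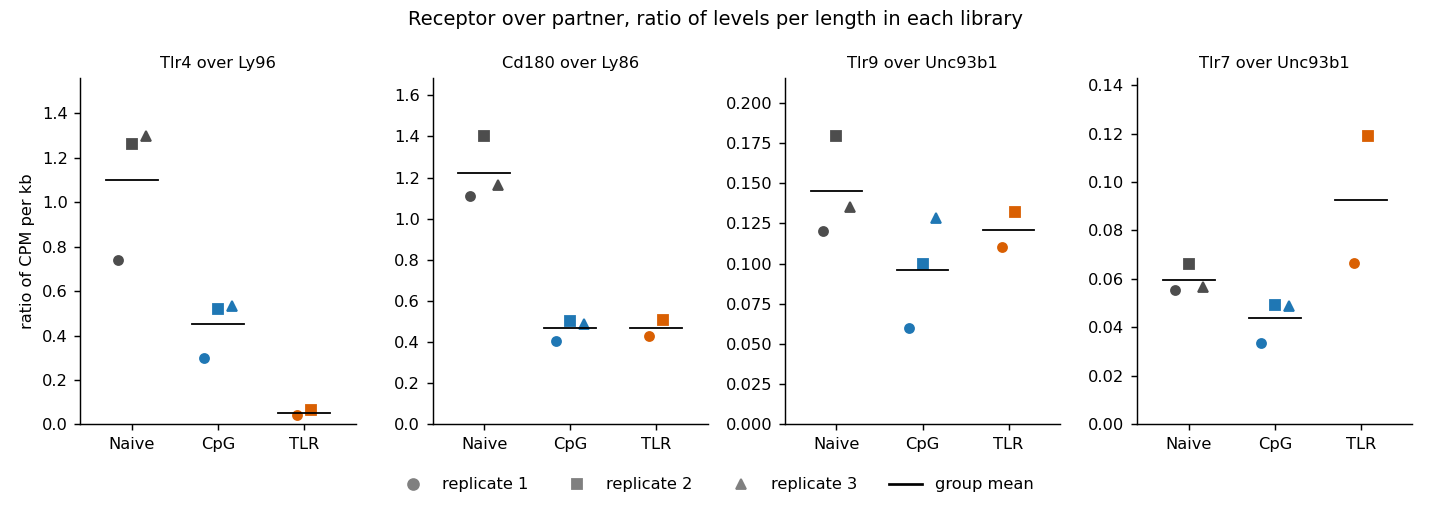
Ratio of each receptor to its partner in CPM per kb, per library, on linear axes that start at 0; symbols mark replicates and lines are group means. Tlr4 over Ly96 falls at both steps to 0.0426 and 0.0637, and Cd180 over Ly86 is near 0.4 to 0.5 in both CpG and TLR libraries.

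Tlr1 and Tlr6 lie side by side on chromosome 5 and share coding sequence, which bears on how their reads can be counted. In the GENCODE M21 transcripts (build GRCm38) 15.3% of the 50-base windows of the longest Tlr1 transcript and 12.6% of those of Tlr6 occur unchanged in another gene. Those of Tlr1 were found in Tlr6, and those of Tlr6 in Tlr1 and, for some, in Ctsq. At 100 bases the shares were 8.85% and 7.24%. No window of either size of the other 8 genes was found in another gene. The 2 reading frames share 6 unbroken runs of at least 50 bases, 748 bases in all, of which the longest has 229 bases and spans bases 1468 to 1696 of the Tlr1 frame and 1507 to 1735 of the Tlr6 frame. It is shown because a read that falls inside it cannot be placed in either gene.
Tlr1 and Tlr6 shared coding run: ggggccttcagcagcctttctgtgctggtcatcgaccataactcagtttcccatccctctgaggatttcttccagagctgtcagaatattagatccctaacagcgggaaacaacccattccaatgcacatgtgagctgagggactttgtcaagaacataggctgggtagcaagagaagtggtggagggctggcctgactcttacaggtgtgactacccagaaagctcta

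Reads that align to several places were left out of the gene counts, so the levels of Tlr1 and Tlr6 may be counted in part. Their share was higher in the RCa1 libraries, and its part in the Tlr1 values of the RCa1 pair was not tested. Of the 10 genes, 1 overlapped another gene's exons: 182 bases of Cd180 (4.04% of its exon length) lie opposite Mast4, which had 227 to 1687 counts per library. Counting ignored strand, so reads there cannot be told apart, and reads marked ambiguous were kept out of the gene counts.

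The RefSeq promoter table (build GRCm38.p6) held windows for 6 of the 10 genes. The letters before the start are shown for Tlr9 and Tlr6, which hold matches to more than a single motif site, and for Tlr2, which holds none. These 3 were picked with their changes and matches known, so they do not compare genes that fell with genes that did not. Capitals mark matches on either strand to 3 motifs, the octamer ATGCAAAT, the PU.1-type GAGGAA and an interferon-response-type motif (GAAA, any 2 bases, GAAA). The intervals are chr9:106222348-106222597 (plus strand) for Tlr9, chr5:64959167-64959416 (minus strand) for the first listed start of Tlr6 and chr3:83841609-83841858 (minus strand) for Tlr2. Each run has the 250 bases before the start.
Tlr9: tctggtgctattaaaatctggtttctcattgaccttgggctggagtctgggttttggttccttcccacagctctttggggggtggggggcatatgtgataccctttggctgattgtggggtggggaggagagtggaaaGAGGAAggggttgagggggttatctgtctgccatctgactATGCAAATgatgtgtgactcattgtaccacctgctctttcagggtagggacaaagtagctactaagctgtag
Tlr6: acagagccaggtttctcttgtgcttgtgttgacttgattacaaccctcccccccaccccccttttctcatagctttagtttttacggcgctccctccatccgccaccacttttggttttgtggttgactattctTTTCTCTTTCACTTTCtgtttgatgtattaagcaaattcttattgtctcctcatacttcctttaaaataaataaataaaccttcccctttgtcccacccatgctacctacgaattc
Tlr2: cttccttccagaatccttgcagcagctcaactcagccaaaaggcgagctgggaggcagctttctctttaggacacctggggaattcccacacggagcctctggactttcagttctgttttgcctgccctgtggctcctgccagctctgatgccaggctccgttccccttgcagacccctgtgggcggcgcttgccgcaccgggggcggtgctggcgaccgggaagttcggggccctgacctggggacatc

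Tlr9 had the octamer 72 bases before its start and GAGGAA 112 bases before it, with a second GAGGAA on the other strand after the start. Tlr6 had 2 overlapping matches to the interferon-response-type motif on the other strand, 116 and 110 bases before its start. Tlr1 had GAGGAA 23 bases before the first of its 2 listed starts, and Tlr2, Cd180, Ly86 and the second listed starts of Tlr1 and Tlr6 had no match in their windows. Cd180 and Ly86 were thus without a match and called lower in the final step. Over 32851 promoter windows of 300 bases (with 50 after the start) 1.73% held the octamer, 28.3% GAGGAA and 3.44% the interferon-response-type motif. A match is a description of these letters and not of binding.

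The other receptors of the family were highest in the naive libraries. Of Tlr3, Tlr5, Tlr8, Tlr11, Tlr12 and Tlr13, all but Tlr5 (11 counts, all in naive libraries) were tested, and these 5 were called lower with CpG and lower in TLR than in naive libraries, with 0 higher (also 0 by DESeq2 and at an unadjusted p below 0.05). DESeq2 called 4 of them lower with CpG and 5 lower in TLR than in naive libraries. By edgeR 21.9% of all tested genes were called lower with CpG and 29.7% lower in TLR than in naive libraries. Tlr12 fell from 10.1 ± 1.05 CPM in naive to 1.62 ± 0.520 CPM in CpG (-2.63 ± 0.38, edgeR adjusted p = 0.000483), and had 1 and 7 counts in the TLR libraries. Tlr3, a receptor for double-stranded RNA, fell from 12.2 ± 4.97 to 3.45 ± 1.02 CPM (-1.81 ± 0.35, edgeR adjusted p = 0.00241). It was at 0.988 ± 0.356 CPM in TLR libraries. Its naive values were 17.9, 9.67 and 8.98 CPM in replicate order, highest in the library with the highest macrophage marker sum. The part of those cells in the Tlr3 change was not tested.

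Tlr13, a receptor for bacterial RNA, had 190, 52 and 28 counts in naive replicates 1 to 3 and 12 counts in the CpG libraries together. Tlr11 had 34, 13 and 13 counts in naive libraries and none in any other. Tlr8 had 85, 39 and 20 counts in naive libraries. The 3 genes were highest in naive replicate 1, as was the macrophage marker sum (1321, 315 and 163 CPM), and the part of those cells was not tested. No median is given for this list, since fitted changes of genes without counts depend on the prior count.

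Genes for the folding, transport and cleavage of the receptors were mixed, and of the chaperones of the endoplasmic reticulum Hsp90b1 and Cnpy3 were not called. Cnpy4 of the same list was called higher with CpG (0.30 ± 0.11, edgeR adjusted p = 0.0432) and not called in the final step. Lrrc59 rose at both steps (0.69 ± 0.14 and 0.64 ± 0.16). Of 14 tested, 6 rose and 3 fell with CpG (4 and 3 by DESeq2; median log2 fold change 0.24), and 2 rose and 4 fell in the final step (median -0.10, against -0.02 over all tested genes). Against naive, 3 rose and 5 fell in TLR libraries (median -0.00484, against 0.01). Among all tested genes 23.5% were higher and 21.9% lower with CpG (median 0.01). The shares were 19% and 19.8% in the final step, and 31.6% and 29.7% in TLR against naive libraries. Hsp90b1, which encodes gp96, was at 643 ± 77.6, 737 ± 103 and 836 ± 501 CPM in naive, CpG and TLR libraries (adjusted p = 0.588 and 0.678 for the 2 steps). Cnpy3, its co-chaperone for these receptors, was at 124 ± 4.77, 106 ± 8.83 and 104 ± 4.34 CPM (adjusted p = 0.0917 and 0.848).

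Slc15a4, an endolysosomal transporter needed for TLR7 and TLR9 responses, fell at both steps, from 200 ± 31.4 to 138 ± 20.4 and 35.9 ± 4.36 CPM (-0.54 ± 0.15 and -1.94 ± 0.18). Syk, a kinase of B cell receptor signalling, took the course of Unc93b1, from 1633 ± 208 to 3093 ± 252 and 1048 ± 33.7 CPM (0.92 ± 0.14 and -1.56 ± 0.16). Ctss, a protease of the endolysosome, fell from 726 ± 35.9 to 375 ± 41.6 CPM with CpG (-0.95 ± 0.12). Stx11, a syntaxin of late endosomes, rose at both steps (1.85 ± 0.17 and 1.46 ± 0.17).

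Among 7 tested genes of co-receptors, ligand delivery and ligand processing, 3 rose and 3 fell with CpG (median -0.13), and 1 rose and 4 fell in the final step (median -0.97). Among all tested genes 23.5% were higher and 21.9% lower with CpG (median 0.01). The shares were 19% and 19.8% in the final step (median -0.02), and 31.6% and 29.7% in TLR against naive libraries (median 0.01). Against naive, 0 rose and 3 fell in TLR libraries (median -0.39; 0 rose and 2 fell by DESeq2, and 0 rose at an unadjusted p below 0.05). Cd36, a scavenger receptor that assists TLR2 with TLR6, rose from 91.3 ± 7.55 to 438 ± 108 CPM (2.26 ± 0.17) and fell back to 70.7 ± 0.171 CPM (-2.63 ± 0.20). Grn, the progranulin gene, rose from 139.9 ± 41.2 to 505 ± 26.5 CPM and fell to 125 ± 7.36 CPM (1.85 ± 0.19 and -2.01 ± 0.22). Pld4, an endolysosomal exonuclease that degrades TLR9 ligands, went from 303 ± 47.4 to 565 ± 158 and 133 ± 12.1 CPM (0.90 ± 0.20 and -2.09 ± 0.24).

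Dnase2a, the lysosomal DNase, fell at both steps, from 71.4 ± 14.1 to 36.7 ± 4.56 and 18.7 ± 2.97 CPM (-0.96 ± 0.17 and -0.97 ± 0.19). Cd14, the LPS co-receptor known from monocytes and macrophages, had 204, 37 and 25 counts in naive replicates 1 to 3, 4 in the CpG libraries together and 0 and 17 in the TLR libraries. Its naive counts were highest in the library with the highest macrophage marker sum.

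Of 18 adaptors and kinases downstream of the receptors, 6 rose and 4 fell with CpG (5 and 5 by DESeq2; median -0.13). In the final step 9 fell and 0 rose (median -0.28), and 0 rose also by DESeq2 and at an unadjusted p below 0.05. Among all tested genes 23.5% were higher and 21.9% lower with CpG (median 0.01). The shares were 19% and 19.8% in the final step (median -0.02), and 31.6% and 29.7% in TLR against naive libraries (median 0.01). Ticam2, the TLR4 adaptor TRAM, rose from 5.83 ± 0.374 to 31.0 ± 4.23 CPM with CpG while Tlr4 fell (2.41 ± 0.16), and went to 10.8 ± 0.971 CPM in the TLR libraries (-1.52 ± 0.18). Irak2 rose from 129 ± 3.30 to 335 ± 32.1 CPM (1.38 ± 0.11) and Ticam1, the adaptor TRIF, from 45.0 ± 3.42 to 99.6 ± 15.1 CPM (1.15 ± 0.13). Both were called lower in the final step (-0.44 ± 0.12 and -0.45 ± 0.14). Irak3 and Sigirr, both inhibitors of the pathway, fell in the final step by 1.02 ± 0.22 and 0.93 ± 0.20 on the log2 scale. Irak3 had been called higher with CpG (1.13 ± 0.19) and was not called in TLR against naive libraries (0.11 ± 0.21). Sigirr was not called with CpG (0.07 ± 0.17) and was lower in TLR than in naive libraries (-0.86 ± 0.20). Against naive, 5 rose and 6 fell in TLR libraries (median -0.18), among them Pik3ap1, an adaptor towards PI3-kinase (1.09 ± 0.15), and Irf5, a transcription factor downstream of TLR7 and TLR9 (-1.21 ± 0.12).

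The gene most like each of the 10 over the 8 libraries, by Pearson r of log2 CPM among 8979 genes whose mean reached 8 CPM, is a description of 3 groups that share libraries. For Tlr9 it was Tfdp2 (r = 0.992), at 35.2 ± 1.41, 37.1 ± 6.93 and 16.8 ± 1.93 CPM in naive, CpG and TLR libraries. For Tlr7 it was Tle4 (0.982), for Unc93b1 Aes (0.995) and for Ly86 Prr13 (0.985). For Tlr4 it was Socs5 (0.995), at 60.9 ± 2.48, 39.1 ± 5.13 and 14.5 ± 1.46 CPM. For Cd180 it was Il17ra (0.993), for Tlr1 Ap1m1 (0.992) and for Tlr6 Hepacam2 (0.997). For Tlr2 it was Ankrd28 (0.967), and Ly96 had the loosest match, Alkbh3 (0.939). No gene exceeded r = 0.95 with Ly96 and 6 did with Tlr2, against 440 with Tlr4.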

How the data were processed

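RNA-seq libraries were polyA-selected and kept strand, per the labels' protocols. STAR, HTSeq and edgeR with build mm9 are named in the submitters' processing notes, without versions or an annotation release. The deposited values are raw counts of reads per gene, 1 table per library, whose names say that strand was ignored. Each table's 5 summary lines were kept out: reads with several alignments made up 14.7% to 50.2%, those outside genes 7.84% to 15.0% and ambiguous ones 1.29% to 2.15%. Symbols came from GENCODE M21 by identifier (32860 of 37583 matched), and its GRCm38 exons gave the lengths.

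After filterByExpr 13964 genes entered edgeR 4.0.16 (R 4.3.3), with TMM factors and its quasi-likelihood test on a model of 3 group means over the 8 libraries. Benjamini-Hochberg adjustment ran over every tested gene. The prior count was 0.125, and SE is the log2 fold change over the root of F. At these depths 1 count was worth 0.0498 to 0.0633 CPM. The edgeR fit was tested on simulated counts for CpG against naive only. The TLR comparisons, the ratios and the sequence steps were not tested in this way. Results were recomputed with DESeq2 1.42.0, with library size alone, with RLE factors, with other filters, on only the groups compared, with replicate number or prefix as terms, without single libraries or the RCa1 prefix, without immunoglobulin genes and, for lengths, with the coding sequence. Members, lists and motifs were chosen with earlier results of these data known. Named genes were the 10 members, up to 3 called genes per list and comparison by smallest p, genes without counts and the most alike gene per member. Hsp90b1, Cnpy3, Cnpy4, Lrrc59, Tlr5 and Tlr8 were added after values were seen. Of the listed B cell markers, 1 is not reported here and was left out of their sum.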

Additional observations from a re-analysis of the deposited data

How the results depend on the processing

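The 10 genes kept their direction and side of the threshold in 99 of 100 values for CpG against naive and in all 100 for each of the other comparisons under the 10 settings other than leaving out a single library; the exception was Tlr9, CpG against naive, at 0.037 with only the RCa18 libraries (not called there or in the fit reported). Leaving out 1 library turned the uncalled direction of Tlr9 in that comparison (-0.26 to 0.11; 0.06 without naive replicate 2 and 0.11 without CpG replicate 1) and of Ly96 (-0.046 to 0.37, the lowest without naive replicate 3). The cause was not tested. With 1 library left out, genes called ranged from 4888 to 6738 for CpG against naive, from 3516 to 5625 for TLR against CpG (1683 to 2756 higher, 1833 to 2869 lower; the lowest without TLR replicate 1, where the lone TLR library is assumed to vary like the others) and from 6990 to 9071 for TLR against naive. Of the 10 genes 1 to 3 were then higher and 2 to 3 lower, 0 higher and 7 to 8 lower, and 0 to 2 higher and 7 to 8 lower, in the same order. The replicate number was not taken to pair the libraries (deviations of naive and CpG libraries of the same number correlated at 0.160, 0.104 and 0.00359, CpG and TLR libraries at 0.325 and 0.297, and naive and TLR libraries at 0.127 and 0.0250; not every library correlated best with its own number); with it as a replicate block 6665, 5541 and 8602 genes were called against 6347, 5417 and 8551, and none of the 10 genes changed its call. Coding length in place of exon length gave surface sums of 133, 93.6 and 51.0 CPM per kb in naive, CpG and TLR libraries, an endosomal sum of 77.2 and a surface to endosomal ratio of 1.73 in naive libraries, Cd180 over Ly86 of 0.372, 0.142 and 0.143, Tlr9 over Unc93b1 of 0.0998 in naive and 0.0834 in TLR libraries, and Tlr7 over Unc93b1 of 0.0473 in naive and 0.0348 in CpG libraries, so levels between genes depend on the length used. Counts were low for Ly96 (82 to 181 per library) and, in the TLR libraries, for Tlr4 (42 and 43) and Tlr6 (44 and 81), which limits their precision.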
